A study of Homo sapiens with 8 samples.

Results

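The genes of prostaglandin synthesis and signalling were followed in 2 human neuroblastoma cell lines in which the ion channel and kinase TRPM7 had been targeted by a short hairpin RNA. The 10 genes were taken by their symbol in the array table, which gave 14 of its 47322 probes and 10 of its 31426 gene symbols. They are the cyclooxygenases PTGS1 and PTGS2, the terminal synthases PTGES, PTGES2, PTGES3 and PTGIS, the receptors PTGER2, PTGER4 and PTGFR, and the breakdown enzyme HPGD. The set was selected on the array signal of PTGS1, which was lower after TRPM7 knockdown in both lines, so the knockdown values of PTGS1 are given as a description, with no test, and tests are given for the other 9 genes.

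RNA was profiled on 8 Illumina HumanHT-12 v4 bead arrays, with 2 arrays in each of 4 groups. SH-SY5Y is a neuroblastic line and SH-EP2 an epithelial-like one. All cells carried a pLKO lentiviral construct and had been selected with puromycin, and they differed in its hairpin, which was a nonfunctional scrambled sequence in control cells and a single TRPM7 sequence in TRPM7 shRNA cells. The labels give 1 culture medium for both lines and the methods a different one for each, and where the media differed, line and medium cannot be told apart. The methods do not say whether the duplicates were separate cultures, so that the p-values measure only the spread between these arrays, which may be technical.

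Prostaglandins are lipid mediators made from arachidonic acid. Cyclooxygenases convert arachidonic acid to the unstable intermediate prostaglandin H2, and terminal synthases turn this into prostaglandin E2, prostacyclin and related products. These products leave the cell and act on G protein-coupled receptors, and HPGD, a 15-hydroxyprostaglandin dehydrogenase, inactivates them. PTGS1 is generally regarded as the constitutive cyclooxygenase and PTGS2 as the inducible one, and prostaglandin E2 is a known growth-promoting signal in neuroblastoma.

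Among the 10 genes, PTGS1 had the largest differences after knockdown, and PTGER2 and PTGS2 the largest between control cells of the lines. The promoters of both cyclooxygenases and of the receptor PTGER2 are therefore shown. Each is the 250 bases before the RefSeq transcription start in the build GRCh38.p14, written 5′ to 3′ on the strand of the gene. They lie at chr9:122375052-122375301 on the plus strand for PTGS1, chr1:186680424-186680673 on the minus strand for PTGS2 and chr14:52314062-52314311 on the plus strand for PTGER2. Capitals mark matches to the searched motifs on either strand.
PTGS1: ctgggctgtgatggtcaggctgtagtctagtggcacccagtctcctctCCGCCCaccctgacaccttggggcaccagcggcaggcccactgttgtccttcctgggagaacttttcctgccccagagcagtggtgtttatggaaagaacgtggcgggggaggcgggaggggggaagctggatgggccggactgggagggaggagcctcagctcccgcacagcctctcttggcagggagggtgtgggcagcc
PTGS2: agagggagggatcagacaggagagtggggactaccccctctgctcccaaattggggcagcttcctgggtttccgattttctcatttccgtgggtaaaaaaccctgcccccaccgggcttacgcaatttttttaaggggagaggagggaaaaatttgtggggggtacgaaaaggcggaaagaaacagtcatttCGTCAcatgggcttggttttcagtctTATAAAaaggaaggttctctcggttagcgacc
PTGER2: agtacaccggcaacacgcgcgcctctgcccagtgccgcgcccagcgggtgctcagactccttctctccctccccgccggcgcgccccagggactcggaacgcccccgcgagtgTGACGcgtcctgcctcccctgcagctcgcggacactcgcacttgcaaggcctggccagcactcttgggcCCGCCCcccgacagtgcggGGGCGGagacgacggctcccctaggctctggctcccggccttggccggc
The PTGS2 promoter held the TATA box TATAAA, whose first letter lay 32 bases before the start, and this was the only match to that motif among the 9 genes with a promoter entry. TATAAA was present in 10.7% of all 35116 promoters of this length. The GC box GGGCGG was found in 7 of the 9 genes, among them PTGS1 and PTGER2 and not PTGS2 or HPGD, and in 42.6% of all promoters. The half-site TGACG of the cAMP response element, which lies downstream of prostaglandin E2 receptors, was found in PTGS2, PTGES3, PTGER2 and HPGD, against 21.2% of all promoters. Neither the AP-1 site TGANTCA nor the E-box CACGTG was found in the 9 genes, while 6.57% and 6.34% of all promoters held them. The GC content was 65.2% for PTGS1, 50.4% for PTGS2 and 74% for PTGER2. These matches describe the letters in the windows, and no binding was measured.

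Across the arrays, 40.8% to 44.2% of the probes were detected, that is, had a detection p-value under 0.05 against the negative control beads. Replicate arrays correlated at 0.982 to 0.985. The TRPM7 probe ILMN_1667047 was not detected on any array, with detection p-values of 0.0753 to 0.201, so it could not check the knockdown. The methods describe quantitative RT-PCR of TRPM7 in both lines, whose values were not examined here. All 6 mesenchymal markers were detected in SH-EP2 cells, and 5 of 6 noradrenergic markers in SH-SY5Y cells, where TH was undetected. Of these noradrenergic markers, 1 was detected on both SH-EP2 control arrays. Of the mesenchymal markers, 4 were detected on both SH-SY5Y control arrays. VIM was no dimmer there, at a mean of 13.67 against 13.48 in SH-EP2 control cells. In bulk RNA, fewer cells with a transcript and less of it per cell cannot be told apart.

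Signals were background corrected, quantile normalised and given on the log2 scale, on which the dimmest detected probe of an array lay between 2.99 and 3.23. Each gene is described by its brightest probe. In SH-SY5Y cells 5 of the 10 genes were detected on each control array and 7 after knockdown, and in SH-EP2 cells 8 and 7 were.

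**Figure D1:**
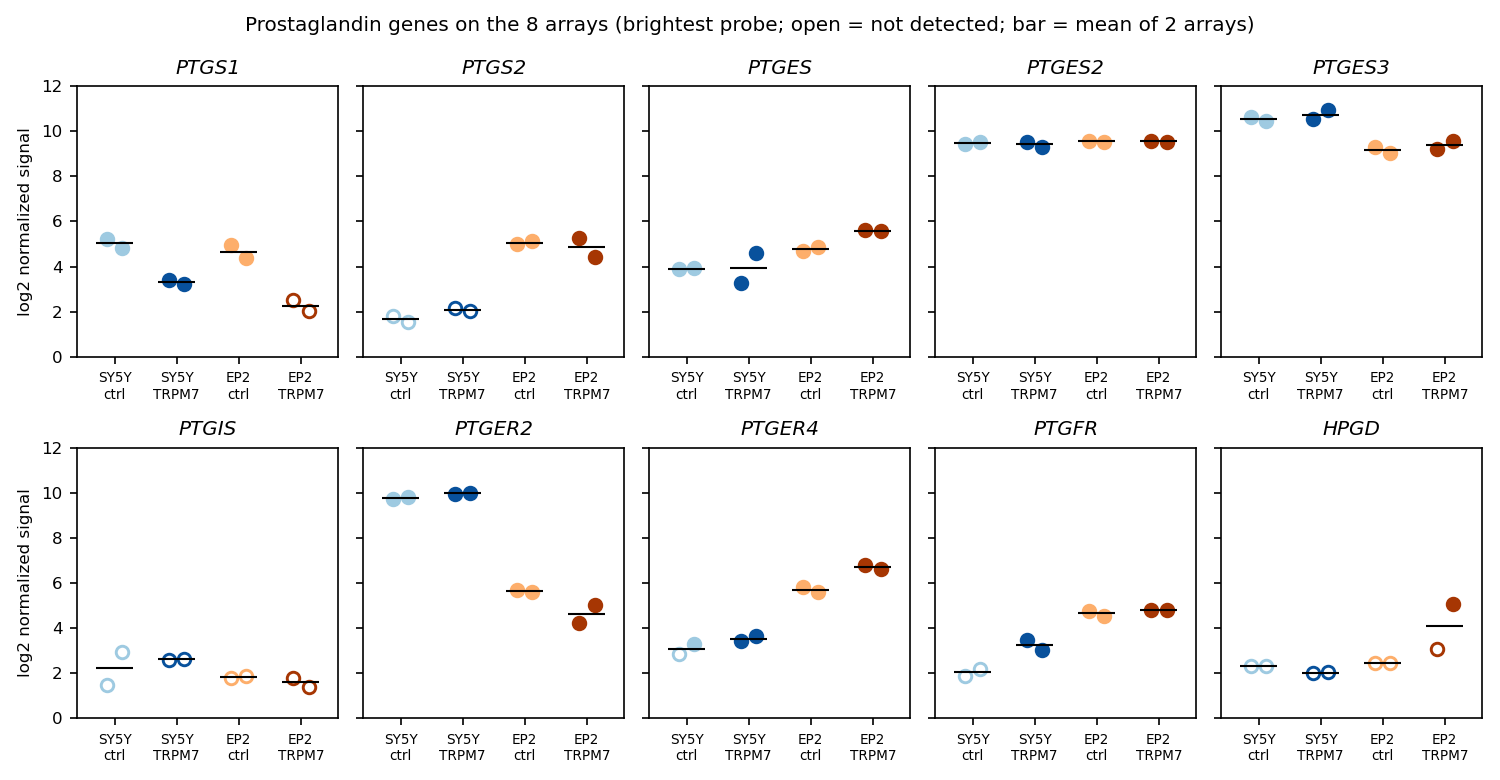
Normalised log2 signal of the 10 prostaglandin genes on each of the 8 arrays, with 1 point per array, a bar at the mean of the 2 arrays of a group, and open points where the probe was not detected. PTGS1 was lower on the TRPM7 shRNA arrays of both lines, PTGER2 lay near 9.7 to 10 in SH-SY5Y cells and at 4.22 to 5.67 in SH-EP2 cells, and PTGIS was open on all arrays.

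Of the 9 genes other than PTGS1, PTGER2 in SH-EP2 cells was the 1 that differed after TRPM7 knockdown past the threshold. The threshold was an adjusted p under 0.05 in limma over all probes. In SH-SY5Y cells 0 of the other 9 genes passed, where 2.58% of all genes passed (1.57% lower and 1.01% higher), and the count was 0 under each of 19 alternatives. In SH-EP2 cells 1 of the 9 passed, PTGER2, which fell, where 3.68% of all genes passed (1.86% lower and 1.83% higher), and 0 to 2 passed under 18 alternatives. At an unadjusted p under 0.05 in limma, 1 of the 9 genes passed in SH-SY5Y cells, beside 12.6% of all genes, and 4 in SH-EP2 cells, beside 14%. The median log2 difference of the 9 genes was 0.22 in SH-SY5Y and 0.15 in SH-EP2 cells, beside 0.0034 and 0.01 for all genes.

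**Figure D2:**
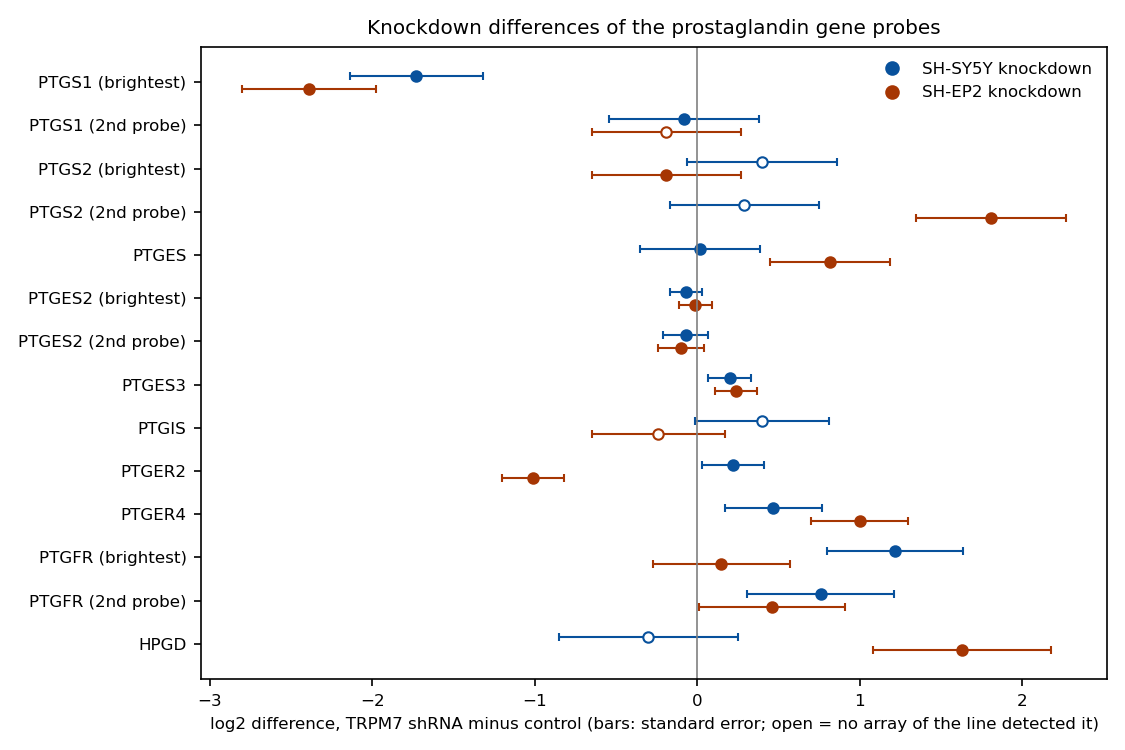
Log2 difference between TRPM7 shRNA and control arrays for the 14 probes of the 10 genes in SH-SY5Y (blue) and SH-EP2 (red), with bars for the standard error and open points where no array of the line detected the probe. The brightest PTGS1 probe lies at -1.73 and -2.39 while its second probe lies near 0 in both lines, and PTGER2 lies at 0.22 and -1.01.

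PTGS1 encodes cyclooxygenase-1. Its brightest probe, ILMN_2339835, gave log2 signals of 5.22 and 4.84 on the SH-SY5Y control arrays and 3.39 and 3.21 on the TRPM7 shRNA arrays, all 4 detected. In SH-EP2 cells it gave 4.96 and 4.37 on the control arrays and 2.51 and 2.02 on the TRPM7 shRNA arrays, where it was no longer detected. The control and knockdown arrays did not overlap in either line, which is a description only, since PTGS1 was selected for this decrease. The difference was -1.73 (SE 0.41, n = 2 per group) in SH-SY5Y cells, 3.32-fold lower, and -2.39 (SE 0.41) in SH-EP2 cells, at least 2.81-fold lower with the undetected signals at the detection floor. The difference between the lines was -0.66 (SE 0.58), and the control cells of the lines differed by -0.37 (SE 0.41).

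These PTGS1 signals were dim. The bead signals exceeded the background of their array by 48 and 28.1 on the SH-SY5Y control arrays and by 14.5 and 12.9 on the TRPM7 shRNA arrays, and by 37.1 and 23.9 and then 6.5 and 0.133 in SH-EP2 cells. The background itself had an SD of 6.71 to 8.05 units. The size of the difference followed the background correction, and without any correction it was -0.27 in SH-SY5Y and -0.34 in SH-EP2 cells. A second PTGS1 probe, ILMN_1665100, was detected on a single array, SH-SY5Y TRPM7 shRNA replicate 2. It gave 2.93 and 2.87 against 2.42 and 3.21 in SH-SY5Y cells, a difference of -0.08 (SE 0.46), and 2.79 and 2.49 against 2.41 and 2.5 in SH-EP2 cells, a difference of -0.19 (SE 0.46). The lower PTGS1 signal therefore rests on 1 of its 2 probes.

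**Figure D3:**
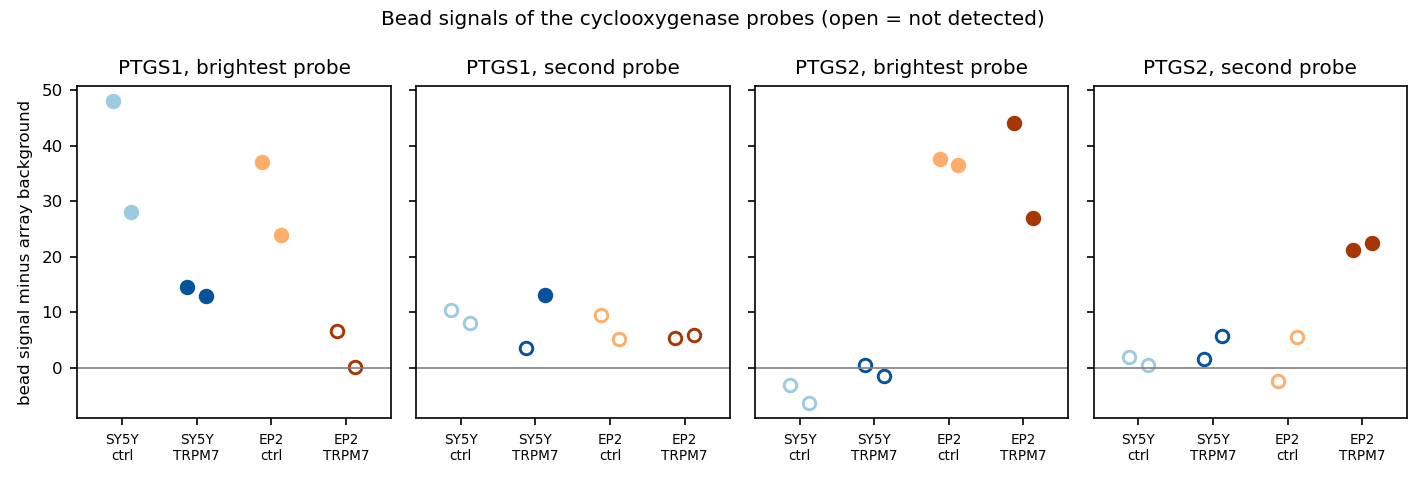
Bead signal minus the modelled background of the array for both probes of PTGS1 and of PTGS2, with 1 point per array and open points where the probe was not detected. The brightest PTGS1 probe goes from 48 and 28.1 to 14.5 and 12.9 in SH-SY5Y and from 37.1 and 23.9 to 6.5 and 0.133 in SH-EP2, and the second PTGS2 probe is detected on the SH-EP2 TRPM7 shRNA arrays alone.

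PTGS2 encodes cyclooxygenase-2, the inducible enzyme. Its brightest probe, ILMN_2054297, was undetected on the 4 SH-SY5Y arrays (1.82, 1.56, 2.17 and 2.02) and detected on the 4 SH-EP2 arrays. In SH-EP2 cells it gave 4.98 and 5.11 in control and 5.28 and 4.43 in TRPM7 shRNA cells, and these groups overlapped. The knockdown difference in SH-EP2 cells was -0.19 (95% confidence interval -1.15 to 0.77, limma adjusted p = 0.934). The second probe, ILMN_1677511, gave a different picture. It was undetected in SH-EP2 control cells (1.85 and 2.53) and detected on both TRPM7 shRNA arrays (3.92 and 4.08), at least 1.71-fold higher (log2 difference 1.81, SE 0.46, limma adjusted p = 0.0349). That call was lost under 8 of 17 alternatives (adjusted p-values of 0.0156 to 0.294), among them leaving out SH-EP2 control replicate 1 (1.47, limma adjusted p = 0.294), control replicate 2 (2.17, 0.0689), TRPM7 shRNA replicate 1 (1.89, 0.118), TRPM7 shRNA replicate 2 (1.73, 0.17) or SH-SY5Y TRPM7 shRNA replicate 1 (adjusted p = 0.0513), and with a replicate block (0.0581). In SH-SY5Y cells the second probe was undetected at 2.19, 2.10, 2.24 and 2.61.

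Of the terminal synthases, PTGES, PTGES2 and PTGES3 were detected on all 8 arrays, PTGES not far above background, and PTGIS on none. PTGES, the inducible microsomal prostaglandin E synthase, gave 3.88 and 3.94 in SH-SY5Y control and 3.28 and 4.58 in TRPM7 shRNA cells, and the knockdown arrays lay on both sides of the control arrays. In SH-EP2 cells it gave 4.71 and 4.85 in control and 5.60 and 5.59 in TRPM7 shRNA cells, a difference of 0.82 (SE 0.37) that did not pass (limma adjusted p = 0.354, unadjusted 0.0393). The SH-SY5Y difference was 0.02 (95% interval -0.75 to 0.79, limma adjusted p = 0.991).

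PTGES2 encodes a second membrane-associated prostaglandin E synthase. Its brightest probe, ILMN_2345015, lay between 9.31 and 9.58 on all 8 arrays. The knockdown differences were -0.07 in SH-SY5Y (95% interval -0.28 to 0.15) and -0.01 in SH-EP2 cells (-0.23 to 0.2), the narrowest intervals among the 10 genes. The second probe, ILMN_2345016, lay between 7.91 and 8.70, with differences of -0.07 and -0.10. PTGES3, the cytosolic prostaglandin E synthase that is also the HSP90 co-chaperone p23, gave 10.62, 10.44, 10.54 and 10.92 in SH-SY5Y and 9.28, 9.02, 9.21 and 9.56 in SH-EP2 cells, controls first. Its knockdown differences of 0.20 (limma adjusted p = 0.632) and 0.24 (0.493) did not pass. PTGIS, the prostacyclin synthase, was undetected on all 8 arrays, with signals of 1.39 to 2.96.

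The 3 receptors differed from one another in line and in knockdown values. PTGER2 encodes EP2, a prostaglandin E2 receptor that raises cAMP, and shares no more than its name with the SH-EP2 line. It gave 9.70 and 9.79 in SH-SY5Y control and 9.95 and 9.99 in TRPM7 shRNA cells, a difference of 0.22 (95% interval -0.18 to 0.62, limma adjusted p = 0.754). In SH-EP2 cells it gave 5.67 and 5.60 in control and 4.22 and 5.04 in TRPM7 shRNA cells, all detected. PTGER2 therefore fell in SH-EP2 cells, where both knockdown arrays lay below both control arrays, by 1.01 on the log2 scale (SE 0.19, 2.01-fold, limma adjusted p = 0.00356). This SE, like that of the difference between the lines below, pools the spread of all 4 groups. Its intensity trend uses the mean over both lines, and PTGER2 was far brighter in SH-SY5Y cells. The SD was 0.58 on the SH-EP2 TRPM7 shRNA arrays, against 0.031 to 0.058 in the other groups. The limma adjusted p was 0.0386 with SH-EP2 fitted alone and 0.276 without the trend. The PTGER2 signals in SH-EP2 cells were dim, in the range of those of PTGS1. The beads exceeded the background of their array by 57.9 and 48.8 in control and by 24.5 and 37.2 in TRPM7 shRNA cells. The effects in the 2 lines differed by -1.23 (SE 0.27, interaction term, limma adjusted p = 0.0212). PTGER2 was the 1 gene of the 9 other than PTGS1 past the threshold for this difference, where 1.8% of all genes passed (0.802% lower and 0.999% higher). The SH-EP2 call rests in part on TRPM7 shRNA replicate 1, without which the difference was -0.60 (limma adjusted p = 0.0812). It was also lost without background correction (-0.23, adjusted p = 0.122) and kept under 14 of 18 alternatives, with adjusted p-values of 5.6e-05 to 0.341. The interaction passed in 1 of 8 fits that left out an array, the one without SH-EP2 TRPM7 shRNA replicate 2 (-1.65), and the other 7 gave -1.27 to -0.82 with adjusted p-values of 0.0655 to 0.0889.

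PTGER4 encodes EP4, the other cAMP-raising prostaglandin E2 receptor. It gave 5.80 and 5.60 in SH-EP2 control and 6.79 and 6.60 in TRPM7 shRNA cells, and these groups did not overlap. The difference of 1.00 (SE 0.30, 1.99-fold) did not pass after adjustment (limma adjusted p = 0.0871). It passed with each of the other background corrections, at 0.77 with neqc (adjusted p = 0.0233), 0.51 with normexp (0.00156) and 0.39 with none (0.000562), and in 5 of 18 alternatives in all, with adjusted p-values up to 0.463. Among these was the fit without SH-SY5Y control replicate 1 (0.0429). In SH-SY5Y cells the signals were 2.84 and 3.28, and 3.42 and 3.63 after knockdown, a difference of 0.47 (limma adjusted p = 0.625). The sign of the PTGER4 difference in SH-EP2 cells was opposite to that of PTGER2.

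PTGFR, the receptor for prostaglandin F2alpha, was undetected in SH-SY5Y control cells (1.89 and 2.19) and detected in TRPM7 shRNA cells (3.49 and 3.01). The fitted difference of 1.22 did not pass (limma adjusted p = 0.192), and the bound on it was at least 1.07-fold. Its second probe, ILMN_2395652, had the same pattern of detection, at 2.97 and 1.91 and then 3.29 and 3.10. In SH-EP2 cells PTGFR was detected throughout at 4.77, 4.53, 4.80 and 4.82, a knockdown difference of 0.15 (95% interval -0.72 to 1.02).

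HPGD, which inactivates prostaglandins by oxidation, was detected on a single array, SH-EP2 TRPM7 shRNA replicate 2, at 5.05. The other arrays gave 2.01 to 3.09. The SH-EP2 difference of 1.63 (SE 0.55) did not pass (limma adjusted p = 0.145), and the 2 knockdown arrays differed more from each other than replicate 1 differed from the controls. Without TRPM7 shRNA replicate 1 it was 2.62 (limma adjusted p = 0.0174), which rests on replicate 2 alone, and without replicate 2 it was 0.65 (adjusted p = 0.762), the lowest and highest adjusted p-values over 17 alternatives.

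**Figure D4:**
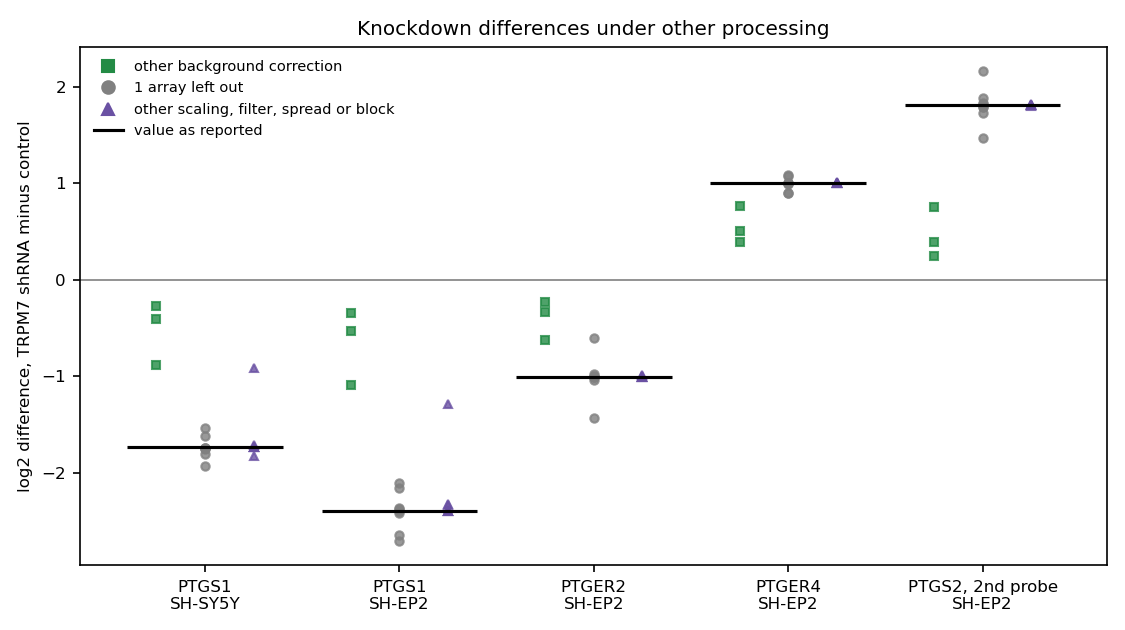
Log2 difference between TRPM7 shRNA and control arrays for PTGS1, PTGER2, PTGER4 and the second PTGS2 probe under other processing, with squares for other background corrections, circles for fits without 1 array, triangles for other scaling, filters, spread estimates or blocks, and a black line at the value as reported. The points of PTGER2, of PTGER4 and of the second PTGS2 probe keep their sign. For PTGS1, which was selected for its decrease, the value without background correction lies nearest to 0, at -0.27 in SH-SY5Y and -0.34 in SH-EP2.

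Some markers of cell state moved with the knockdown in both lines. In SH-SY5Y cells the summed signal of the 6 noradrenergic markers was 21100 to 21700 in control and 13700 to 14500 in TRPM7 shRNA cells, with 5 of 6 detected in both. The single markers differed in direction, with -1.20 for DBH and -0.58 for STMN2, which passed, and -0.72 for PHOX2A, -0.02 for CHGA and 0.35 for GATA3, which did not, and STMN2 no longer passed without any 1 of the SH-SY5Y arrays. The summed signal of the 6 mesenchymal markers was 12700 to 14100 in control and 10700 to 11100 in TRPM7 shRNA cells. That sum is mostly VIM, which lay at 13.67 in control and fell by 0.30 (limma adjusted p = 0.0169). The VIM bead signals before normalisation overlapped, at 14541 and 11055.7 in control and 11398.3 and 12142 in TRPM7 shRNA cells. The VIM call was not recomputed under other processing. COL1A1 (-0.31), YAP1 (-0.08) and CD44 (0.29) did not pass, and FN1 and PRRX1 were undetected. In SH-EP2 cells the mesenchymal sum was 24600 to 25300 in control and 25300 to 26000 in TRPM7 shRNA cells, a sum that holds opposite differences of 0.77 for CD44 (limma adjusted p = 0.0208) and -0.56 for COL1A1 (adjusted p = 0.00329). The CD44 call was lost without any 1 of the SH-EP2 arrays, and that of COL1A1 without either control array or without TRPM7 shRNA replicate 2 (adjusted p-values of 0.0566 to 0.107). Of the 5 leukocyte markers, 4 were detected in SH-EP2 control cells and 2 in TRPM7 shRNA cells, and their summed signal was 357 to 364 in control and 130 to 142 in TRPM7 shRNA cells. The control sum is mostly CD14, a monocyte receptor for lipopolysaccharide, which fell by 2.03 on the log2 scale (limma adjusted p = 3.1e-05). CSF1R (-0.41), LYZ (-1.44) and ITGAM (-0.50) did not pass, and CSF1R stayed detected. PTPRC, which defines leukocytes, lay at 3.49 and 3.31 in control and 2.91 and 3.89 in TRPM7 shRNA cells. The part of these shifts in the PTGS1 and PTGER2 differences was not tested.

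Control cells of the 2 lines differed in 5 of the 10 genes, where 30.1% of all genes passed (14.2% higher and 15.9% lower in SH-EP2). PTGS2, PTGER4 and PTGFR were higher in SH-EP2 cells, and PTGES3 and PTGER2 were higher in SH-SY5Y cells. PTGER2 showed the largest difference of the 10, 17.3-fold lower in SH-EP2 cells (log2 difference -4.11, SE 0.19, limma adjusted p = 6.86e-13). PTGER4 was 6.23-fold higher in SH-EP2 cells (2.64, SE 0.30, limma adjusted p = 4.77e-07), so that these 2 of the prostaglandin E2 receptors differed in opposite directions. PTGS2 was at least 3.72-fold higher (limma adjusted p = 6.12e-06) and PTGFR at least 2.83-fold higher (4.1e-05), each undetected in SH-SY5Y control cells.

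PTGES3 was 2.61-fold lower in SH-EP2 cells (limma adjusted p = 3.81e-08). PTGES did not pass (0.87, adjusted p = 0.0987), nor did the brightest PTGES2 probe (0.07), while the second PTGES2 probe was lower in SH-EP2 cells by a small amount (-0.48, adjusted p = 0.0145). These 5 genes were called under each of the 17 settings tried, and PTGES also passed in 2 of them. The sizes moved with the processing, over 0.52 to 3.46 for PTGS2, 0.48 to 2.88 for PTGER4, 0.37 to 2.79 for PTGFR and -4.18 to -2.57 for PTGER2, the smallest without background correction. The second PTGS2 probe was undetected in control cells of both lines, so the line difference of PTGS2 likewise rests on 1 probe.

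**Figure D5:**
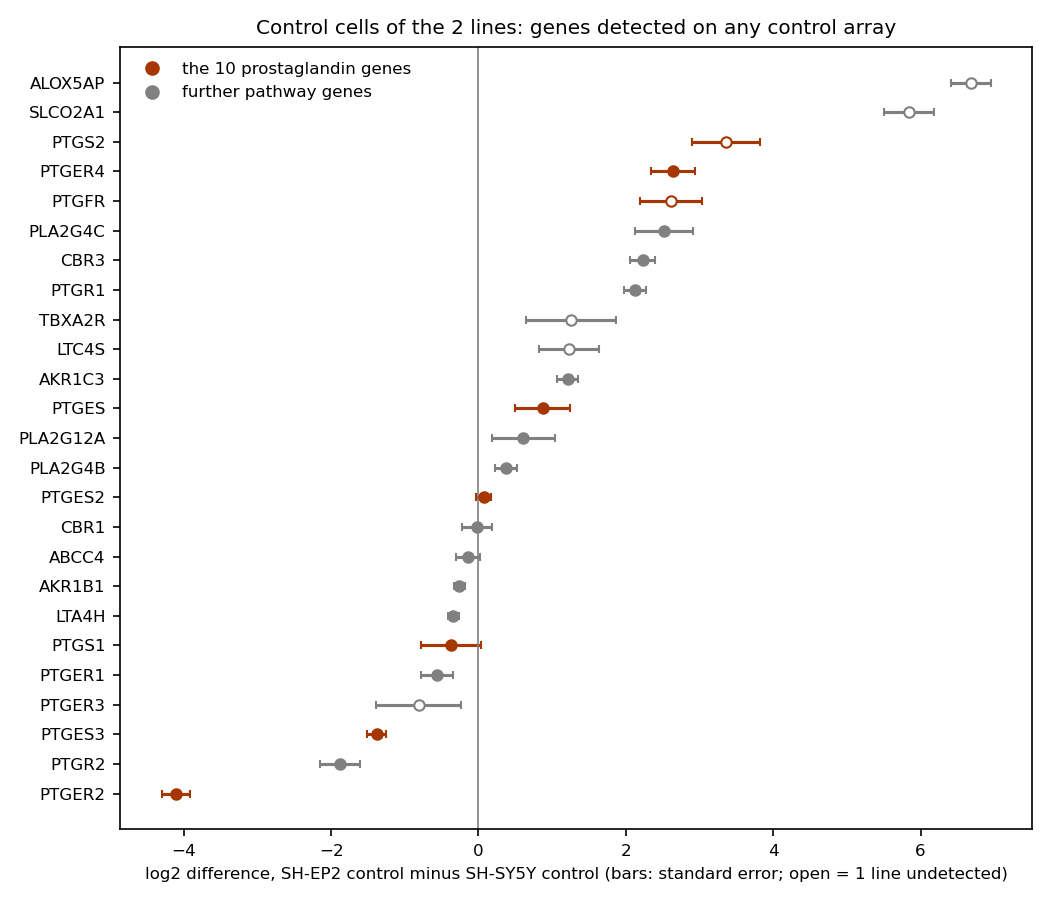
Log2 difference between SH-EP2 and SH-SY5Y control arrays for the prostaglandin genes (red) and the further pathway genes (grey) detected on any control array, with bars for the standard error and open points where 1 line was undetected. PTGER2 lies farthest to the left at -4.11, and ALOX5AP and SLCO2A1 farthest to the right at 6.68 and 5.84.

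A further list of 34 gene symbols of the same pathway, from phospholipases to transporters and the lipoxygenase branch, was described beside these genes. Of them 31 were in the table and 21 were detected on at least 1 array. In SH-SY5Y cells 1 of the 31 passed after knockdown and in SH-EP2 cells 1 passed, beside the 2.58% and 3.68% of all genes given above. At an unadjusted p under 0.05 the counts were 9 and 7, beside 12.6% and 14% of all genes. The medians were -0.0056 and 0.21.

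The gene that fell in SH-SY5Y cells was AKR1C3, an aldo-keto reductase with prostaglandin F synthase activity that also acts on steroids. It gave 7.90 and 7.88 in control and 6.84 and 7.21 in TRPM7 shRNA cells, and fell by 0.86 on the log2 scale (SE 0.14, limma adjusted p = 0.000714). In SH-EP2 cells it gave 9.05 and 9.14, and 8.69 and 8.84 after knockdown (-0.33, adjusted p = 0.278). The gene that rose in SH-EP2 cells was AKR1B1, aldose reductase, which also has prostaglandin F synthase activity. It gave 11.64 and 11.78 in control and 11.98 and 12.11 in TRPM7 shRNA cells, a rise of 0.34 (SE 0.078, limma adjusted p = 0.0193). That call was lost without SH-EP2 control replicate 1 (0.27, adjusted p = 0.263) and without TRPM7 shRNA replicate 2 (0.27, adjusted p = 0.281), and kept under 13 of 18 alternatives (adjusted p-values of 0.00168 to 0.548).

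Between control cells 10 of the 31 genes differed, 7 higher and 3 lower in SH-EP2 cells, a share near the 30.1% of all genes. Among those higher, chosen for their size after their values were seen, were ALOX5AP, the 5-lipoxygenase activating protein, at least 54.6-fold, and SLCO2A1, the prostaglandin uptake transporter, at least 20.4-fold (limma adjusted p = 6.91e-14 and 3.01e-11). Both were undetected in SH-SY5Y control cells. These bounds hold for the background correction used. Over 16 alternatives the log2 differences ranged from 2.45 to 6.88 for ALOX5AP and from 1.54 to 6.08 for SLCO2A1, the smallest without background correction.

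The genes whose signals followed those of PTGS1 and PTGS2 most closely were taken from 15448 probes by Pearson's r over the 8 arrays, as a description. For PTGS1 these were PKMYT1 (r = 0.976), a kinase that holds CDK1 inactive, then LOC100131688 (0.961), LOC283267 (0.96), PJA1 (0.956), a ubiquitin ligase, and ZNF74 (0.953). The group means of PKMYT1 were 4.96 and 4.31 in SH-SY5Y control and TRPM7 shRNA cells and 4.86 and 3.97 in SH-EP2 cells. For PTGS2 they were CCDC85A and CYBRD1 (both 0.996), AASS (0.995), RPL23AP7 and MSR1 (both 0.994). The latter follow the contrast between the lines, as with MSR1, a scavenger receptor, whose means were 2.13 and 2.79 in SH-SY5Y and 6.57 and 6.43 in SH-EP2 cells. The 8 points of each correlation fall into 4 groups of replicate arrays, so they are not independent.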

How the data were processed

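The deposited table holds the intensity of each probe on each array on a linear scale, labelled as not normalised, which the authors had exported from GenomeStudio 2011.1. Their methods name Robust-Multi-Array normalisation in Arraystar and p-values from Multi Experiment Viewer, without naming the test. The deposited detection p-value of a probe compares it with negative control beads.

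Here background was removed by the RMA model, followed by quantile normalisation across the 8 arrays and log2, without a filter. Groups were taken from the cell line and shRNA in the labels. limma 3.58.1 with statmod 1.5.0 in R 4.3.3 was fitted to the 4 groups (eBayes with an intensity trend, 4 residual degrees of freedom), with two-sided tests and Benjamini-Hochberg adjustment over all 47322 probes. Counts take the brightest probe of each of 31426 symbols, and 3270 probes had no symbol. Bounds set an undetected group at the lowest detected signal of each array. The number of arrays limits the precision.

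The genes named are the 10 members, TRPM7, further pathway genes past the threshold in a knockdown contrast, and the 5 genes most like PTGS1 and PTGS2. ALOX5AP, SLCO2A1 and LTA4H fall outside this rule and were chosen after their values were seen, and markers come from lists of their own. Members and lists were chosen with earlier results of these data known. Of the further pathway symbols, FAM213B, PTGDR2 and LTB4DH were not matched. The list holds older and newer symbols side by side, so an unmatched symbol does not mean that its gene was absent. Promoters came from the RefSeq table of GRCh38.p14, in which PTGIS was not matched. No genome was used. The fit was tested on simulated data.

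The counts and the named differences, but not the correlations and some marker values, were recomputed with no background correction, neqc (offset 16) or normexp (offset 50), with median scaling, with a filter that kept probes detected on 2 or more arrays, and with eBayes without a trend, a per-probe test, each line alone, a replicate block, the mean over probes, and leaving out each array, with the remaining array of its group assumed to vary like the other groups. Replicates sharing a number did not deviate together, since their deviations correlated at -0.111 in SH-SY5Y and -0.00442 in SH-EP2 over 14577 probes.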

Additional observations from a re-analysis of the deposited data

Results flagged for a closer look

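The knockdown effect on PTGER2 differed between the lines, by -1.23 on the log2 scale (SE 0.27, SH-EP2 minus SH-SY5Y, limma interaction adjusted p = 0.0212 over 47322 probes). The effect was 0.22 in SH-SY5Y cells and -1.01 in SH-EP2 cells. Over 17 alternatives the difference between the lines ranged from -1.65 to -0.43. It did not pass without the intensity trend, with the per-probe test or with the mean over probes, and the fits without 1 array are given above.

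The effect on LTA4H, leukotriene A4 hydrolase, differed by 0.48 (SE 0.11, limma interaction adjusted p = 0.0267). It passed under 7 of 17 alternatives, with values of 0.38 to 0.53 and adjusted p-values of 0.017 to 0.573, and in 2 of the 8 fits without 1 array, those without SH-SY5Y control replicate 1 or SH-SY5Y TRPM7 shRNA replicate 2. LTA4H is outside the naming rule and was chosen after its values were seen. It gave 11.09 and 11.18 in SH-SY5Y control and 10.89 and 10.95 in TRPM7 shRNA cells, and 10.78 and 10.82 and then 11.07 and 11.06 in SH-EP2 cells, so the normalised signals moved in opposite directions. Before normalisation the SH-SY5Y bead signals overlapped, at 2449.4 and 1972.6 in control and 2034.2 and 2370.6 in TRPM7 shRNA cells. With median scaling the interaction was 0.38 (limma adjusted p = 0.265). Neither knockdown difference passed in its own line (-0.21, limma adjusted p = 0.237, and 0.27, adjusted p = 0.0667). With 2 arrays per group no array was tested as an outlier.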

How the results depend on the processing

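Counts of prostaglandin genes after knockdown here are of the 9 other than PTGS1, whose values were not tested. Their ranges over the alternatives are given above for SH-SY5Y and SH-EP2 cells. The PTGER2 call in SH-EP2 cells was lost without background correction, without the intensity trend and with the per-probe test. PTGER4 was called in SH-EP2 cells with neqc, normexp, no background correction and the line alone. The 1 interaction became 0 without the trend, with the per-probe test and with the mean over probes, and 0 to 1 without 1 array. The 5 line differences stayed at 5 to 6. The 1 further pathway gene in SH-SY5Y cells became 3 with neqc, normexp, no background correction and median scaling, 4 with the detection filter, 0 without the trend or with the per-probe test, 2 with the line alone, 2 with the replicate block, and 1 to 3 without 1 array. The 1 in SH-EP2 cells became 4 with neqc, normexp, no background correction and the filter, 0 with median scaling, without the trend or with the per-probe test, 6 with the line alone, 2 with the mean over probes, and 0 to 3 without 1 array (0 without SH-EP2 control replicate 1 or TRPM7 shRNA replicate 2).

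The values that changed sign, none of which passed the threshold, were PTGES2 in SH-SY5Y (0.07 with median scaling, 0.05 without TRPM7 shRNA replicate 2), AKR1B1 in SH-SY5Y (0.03 with median scaling), PTGS2 in SH-EP2 (0.81 with the mean over probes, 0.23 without TRPM7 shRNA replicate 2), PTGES in SH-SY5Y (-0.01 without control replicate 1, -0.61 without TRPM7 shRNA replicate 2), PTGIS in SH-SY5Y (-0.35 without control replicate 1) and PTGES2 in SH-EP2 (0.01 without TRPM7 shRNA replicate 2). The cause was not tested. Over the fits without 1 array these ranged from -0.19 to 0.05 for PTGES2, -0.61 to 0.66 for PTGES and -0.35 to 1.16 for PTGIS in SH-SY5Y, and from -0.62 to 0.23 for PTGS2 and -0.04 to 0.01 for PTGES2 in SH-EP2 cells. PTGS1 was selected for its decrease, so its sign in refits of the same arrays is no test of it. Its values ranged from -1.93 to -0.27 in SH-SY5Y and from -2.71 to -0.34 in SH-EP2 cells. With the mean over its probes they were -0.91 and -1.29.

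Over all probes, 1003 passed in SH-SY5Y cells (386 higher and 617 lower), and median scaling gave 837 (553 higher and 284 lower). The counts fell to 64 without the trend and 50 with the per-probe test, and in SH-EP2 cells from 1433 to 102 and 103. With the replicate block, which assumes that equal numbers pair the arrays, they were 806 and 1142. A block crossing the numbers in SH-SY5Y cells, chosen after seeing the data, gave 1424 probes, 4 further pathway genes and 0 of the 9 prostaglandin genes other than PTGS1. PTGIS and HPGD gave no value under the detection filter, and fits of each line alone gave no interaction or line difference. Signals close to background limit PTGS1, PTGS2, PTGES, PTGFR and HPGD, as well as PTGER2 in SH-EP2 and PTGER4 in SH-SY5Y cells.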
